A study of Homo sapiens with 38 samples.

Results

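The 9 genes ALAS1, ALAS2, ALAD, UROS, UROD, CPOX, PPOX, FECH and SLC25A37, of 20163 protein-coding genes in the annotation, encode enzymes of heme synthesis and the mitochondrial iron carrier that serves it. They were chosen by name, and each was scored within 1.5 kb either side of all its annotated transcript starts (its start windows) and over its gene body, from its outermost start to its end. The data are CUT&Tag peak lists from K562 cells, an established human leukemia line with erythroid features, for H3K27ac, a histone mark of active promoters and enhancers, and H3K27me3, a mark of repressed chromatin. In CUT&Tag an antibody against the mark brings the transposase Tn5 to chromatin, where it cuts out and tags the DNA around it. Of the 38 libraries, 31 were made against H3K27ac and 7 against H3K27me3, the H3K27me3 libraries all with the antibody CST-9733 at 1:100. The study used them to tune and benchmark CUT&Tag in this line. The 8 benchmark libraries comprise 6 H3K27ac libraries (2 each with the antibodies Abcam-ab177178 at 1:100, Abcam-ab4729 at 1:100 and Diagenode at 1:50, written here without the maker where a number names them) and 2 H3K27me3 libraries, made with 15 PCR cycles, DNA release by SDS and no deacetylase inhibitor. A further 4 H3K27ac libraries (ab4729, ab177178, and Diagenode at 1:50 and 1:100) were made with 1 µM trichostatin A (TSA), an inhibitor of histone deacetylases, and 6 first libraries (5 H3K27ac, 1 H3K27me3) without it, the H3K27ac ones with the same antibodies and Active Motif at 1:100, both sets at 15 cycles with SDS. The PCR and extraction experiment holds 16 H3K27ac and 4 H3K27me3 libraries, 1 for each combination of cycle number (13 or 11), extraction (column or SDS) and antibody, namely CST-9733, Active Motif, ab177178, ab4729 and Diagenode at 1:50. All libraries come from 1 unedited cell line, and the study calls the benchmark libraries of an antibody biological replicates. How these were grown apart is not given in the sources used here, so p-values measure the spread between these libraries.

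Heme is built from glycine and succinyl-CoA in a chain of reactions that begins and ends in the mitochondrion. Aminolevulinate synthase catalyzes the first reaction and sets the rate, in a ubiquitous form encoded by ALAS1 and an erythroid form encoded by ALAS2 on the X chromosome. ALAD condenses aminolevulinate into the pyrrole porphobilinogen, UROS closes the tetrapyrrole ring, and UROD, CPOX and PPOX trim and oxidize its side chains and core. FECH, ferrochelatase, inserts iron into the finished ring, and SLC25A37, mitoferrin, carries that iron across the inner mitochondrial membrane. Developing red cells need far more heme than other cells, and the erythroid factor GATA1 is known to act at several genes of the pathway, among them ALAS2.

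Sequence at the peak summits and starts on which the results turn is printed first, from GRCh37 on the strand of each gene, 5′ to 3′. Capitals mark matches on either strand to the GATA motif in the spellings AGATAA and TGATAA. They also mark the motif of the erythroid factor NF-E2 and of AP-1, spelled TGACTCA. Other spellings of these motifs were not searched, so a match here means these letters only. The windows take in 100 bases either side of the median H3K27ac summit of an intronic region in ALAS2 intron 1 (chrX:55054663-55054863) and of one in FECH intron 1 (chr18:55250671-55250871), both on the minus strand. They are shown because these 2 regions carried peaks inside the gene, away from its first exon.
ALAS2 intron 1: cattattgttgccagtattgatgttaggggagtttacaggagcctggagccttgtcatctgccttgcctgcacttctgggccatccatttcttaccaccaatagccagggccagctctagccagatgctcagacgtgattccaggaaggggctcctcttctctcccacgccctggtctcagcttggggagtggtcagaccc
FECH intron 1: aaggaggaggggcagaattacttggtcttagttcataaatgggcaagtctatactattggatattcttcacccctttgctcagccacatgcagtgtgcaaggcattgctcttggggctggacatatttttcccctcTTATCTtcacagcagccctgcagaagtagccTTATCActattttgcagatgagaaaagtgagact

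The windows of 250 bases end just before the outermost start of ALAS2 (chrX:55057411-55057660, minus strand) and of CPOX (chr3:98312493-98312742, minus strand), the only members with a GATA match in the 250 bases before the start of the canonical transcript. That of ALAS1 (chr3:52231852-52232101, plus strand) has no match and is shown beside ALAS2, its erythroid counterpart.
ALAS2 before start: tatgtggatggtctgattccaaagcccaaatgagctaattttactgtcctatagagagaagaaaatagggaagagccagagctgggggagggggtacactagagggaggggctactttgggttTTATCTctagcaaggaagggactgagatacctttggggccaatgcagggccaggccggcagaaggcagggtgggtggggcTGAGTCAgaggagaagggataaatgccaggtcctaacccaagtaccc
CPOX before start: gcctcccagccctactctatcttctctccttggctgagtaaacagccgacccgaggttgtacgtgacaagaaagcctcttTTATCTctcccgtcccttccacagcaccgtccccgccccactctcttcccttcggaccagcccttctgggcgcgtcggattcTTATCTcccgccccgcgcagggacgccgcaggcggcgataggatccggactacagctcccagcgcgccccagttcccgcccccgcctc
ALAS1 before start: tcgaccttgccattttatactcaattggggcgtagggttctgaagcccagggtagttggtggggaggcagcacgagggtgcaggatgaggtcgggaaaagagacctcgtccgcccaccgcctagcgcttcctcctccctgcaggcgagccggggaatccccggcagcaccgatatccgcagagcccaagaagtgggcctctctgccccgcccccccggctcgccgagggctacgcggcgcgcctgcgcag

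ALAS2 held 1 GATA and 1 TGACTCA match before its start, and FECH held 2 GATA matches in intron 1. The ALAS2 intron 1 window held neither motif. Over the members, GATA matched in 2 of 9 windows before the canonical start (22.2%), against 10.3% of 19881 such windows of protein-coding genes, and TGACTCA in 1 of 9 (11.1%), against 3.05%. At the summits of the 34 peak regions of the 9 genes, GATA matched in 5 (14.7%), against 13.6% to 17.1% of all summits in the 6 benchmark H3K27ac lists, and TGACTCA in 4 (11.8%), against 5.85% to 6.95%. The letters CCACACCC, a CACCC box, matched in 0 of 34 member summits, against 3.16% to 3.80% of all summits, and in 0 of 9 windows before a start, against 2.88%. A match is a run of letters and not a measured binding site, and with 9 and 34 windows these shares are a description.

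The analysis rests on 56 peak lists, 18 called by MACS2 and 38 by SEACR, with 1331138 peaks in all, each called on 1 library. The benchmark H3K27ac lists held 21317 to 34897 MACS2 and 10930 to 15614 SEACR peaks, the benchmark H3K27me3 lists 65638 to 77412 and 83643 to 85248. H3K27ac lists of the PCR and extraction experiment, called after downsampling, were shorter, with 3797 to 10821 SEACR peaks. Of 7 erythroid marker genes, 6 (GATA1, TAL1, LMO2, NFE2, EPOR and TFRC) had an H3K27ac MACS2 peak at a start in 6 of 6 benchmark libraries, against 43.8% of protein-coding genes. Of 7 markers of other cell types, 6 (CD3E, MS4A1, ALB, MYOD1, NEUROD1 and KRT5) had none in any, while 58.6% of genes had one in at least 1 library. MYOD1, NEUROD1 and KRT5 carried H3K27me3 in both libraries, as did 26.3% of genes by MACS2 and 25.9% by SEACR. A peak list gives neither fragments nor cells, so no counting interval was computed. Library depths, which the study gives in fragments, were not used here. Fewer cells with a mark cannot be told apart from less of the mark in each cell.

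ALAS1, ALAS2 and ALAD, which open the pathway, had the smallest median H3K27ac cover of the 9 genes over the benchmark libraries by either caller. By SEACR single libraries did not keep this order, and ALAS1 and ALAD reached 64.1% and 45.5%, above the highest UROS library at 40.3%. Cover is the percent of the bases of all start windows of a gene that lie under peaks. ALAS1 (chr3:52232102-52248343, plus strand) had a MACS2 cover of 4.81% at the lowest, 12.7% at the median and 24.5% at the highest of the 6 H3K27ac libraries, against 0% in both H3K27me3 libraries. Its peak sat at the canonical start in 6 of 6 libraries, and a window in the last part of the gene had, 12.6 kb from the canonical start at its median summit, a second peak region in 3. By SEACR the cover of ALAS1 was 0% in Diagenode replicate 1 and 25.0% to 64.1% in the other 5 H3K27ac libraries. In its main start window alone, ALAS1 had a median cover of 83.8% by SEACR and 29.5% by MACS2. The main windows of CPOX had 78.4% and 48.2%, and those of UROS 95.4% and 77.2%.

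ALAS2 (chrX:55035488-55057410, minus strand) had the lowest median cover of all by either caller. Its MACS2 cover was 4.56% and 19.8% in Diagenode replicates 1 and 2, 4.86% and 0% in ab177178 replicates 1 and 2, and 0% and 5.08% in ab4729 replicates 1 and 2, against 0% in both H3K27me3 libraries. Diagenode replicate 2 was the highest, and the 2 H3K27ac libraries at 0% overlapped the H3K27me3 libraries. SEACR called ALAS2 in ab4729 replicate 2 alone, with 37.2% of its start windows covered. ALAD (chr9:116148592-116163570, minus strand) had a MACS2 cover of 5.51%, 9.21% and 11.5% at the lowest, median and highest H3K27ac library, against 0% in both H3K27me3 libraries. SEACR called ALAD in both ab177178 libraries (44.2% and 45.5%) and in ab4729 replicate 1 (18.7%), and in neither Diagenode library. For ALAS1, ALAS2 and ALAD the H3K27ac SEACR lists overlapped the H3K27me3 lists, which were at 0%.

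UROS and UROD, which close the ring and remove its acetate carboxyls, were covered in every benchmark H3K27ac library by both callers. UROS (chr10:127473549-127511827, minus strand) had a MACS2 cover of 19.5%, 26.3% and 27.02% at the lowest, median and highest H3K27ac library, and a SEACR cover of 32.7%, 37.99% and 40.3%. Both H3K27me3 libraries were at 0% by either caller. The gene has 4 start windows, and the peaks lay in the first 2, with a MACS2 cover of 57.1% to 86.6% at the main start and 42.1% to 63.4% at starts 6626 to 8198 bp downstream, and none in the others. The first window also holds the start of BCCIP, so a peak there cannot be assigned to UROS alone.

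UROD (chr1:45476622-45481247, plus strand), the shortest of the 9 genes at 4626 bp, was the most widely covered by MACS2, with 53.1%, 69.3% and 75.6% at the lowest, median and highest H3K27ac library. By SEACR it had 70.3%, 92.4% and 100%, and both H3K27me3 libraries were at 0% by either caller. Its start window of 6598 bp takes in the whole gene and the start of HECTD3, so that promoter and gene body cannot be separated here.

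CPOX, PPOX and FECH, which carry out the final oxidations and the insertion of iron, were likewise covered in 6 of 6 H3K27ac libraries. CPOX (chr3:98298290-98312492, minus strand) had a MACS2 cover of 22.3%, 32.7% and 37.5% at the lowest, median and highest library, and a SEACR cover of 39.2%, 49.8% and 69.5%. PPOX (chr1:161135846-161147803, plus strand) had 31.4%, 47.0% and 57.4% by MACS2, and by SEACR 55.5% and 60.3% in the ab4729 libraries and 100% in the other 4. FECH (chr18:55211609-55253964, minus strand) had 19.5%, 29.7% and 43.5% by MACS2 and 50.1% in all 6 libraries by SEACR, which covered the whole of its first window and none of the second, 27157 to 27487 bp downstream. Both H3K27me3 libraries were at 0% for each of the 3 genes, so the marks did not overlap. A start of a readthrough gene, ENSG00000285635, lies in the second CPOX window, and that of the noncoding ENSG00000290115 in the PPOX window.

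SLC25A37 (chr8:23386469-23432976, plus strand), the longest gene at 46508 bp, varied least between libraries by MACS2, with 32.4%, 35.1% and 36.7% at the lowest, median and highest H3K27ac library, an SD of 1.85 percentage points. SEACR covered 33.0% in 5 libraries and 48.7% in ab4729 replicate 1. Of its 3 start windows the first was covered by 94.4% to 100% by MACS2 and by 100% in 6 of 6 libraries by SEACR, and the third by 0%. The plot of start cover by library shows that by MACS2 the 3 genes that open the pathway sit below the others, and that H3K27me3 sits at 0% throughout. By SEACR the genes mix, since ALAS1, ALAD and ALAS2 reached 64.1%, 45.5% and 37.2% in their highest libraries, above the 33.0% of SLC25A37 in 5 libraries.

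**Figure D1:**
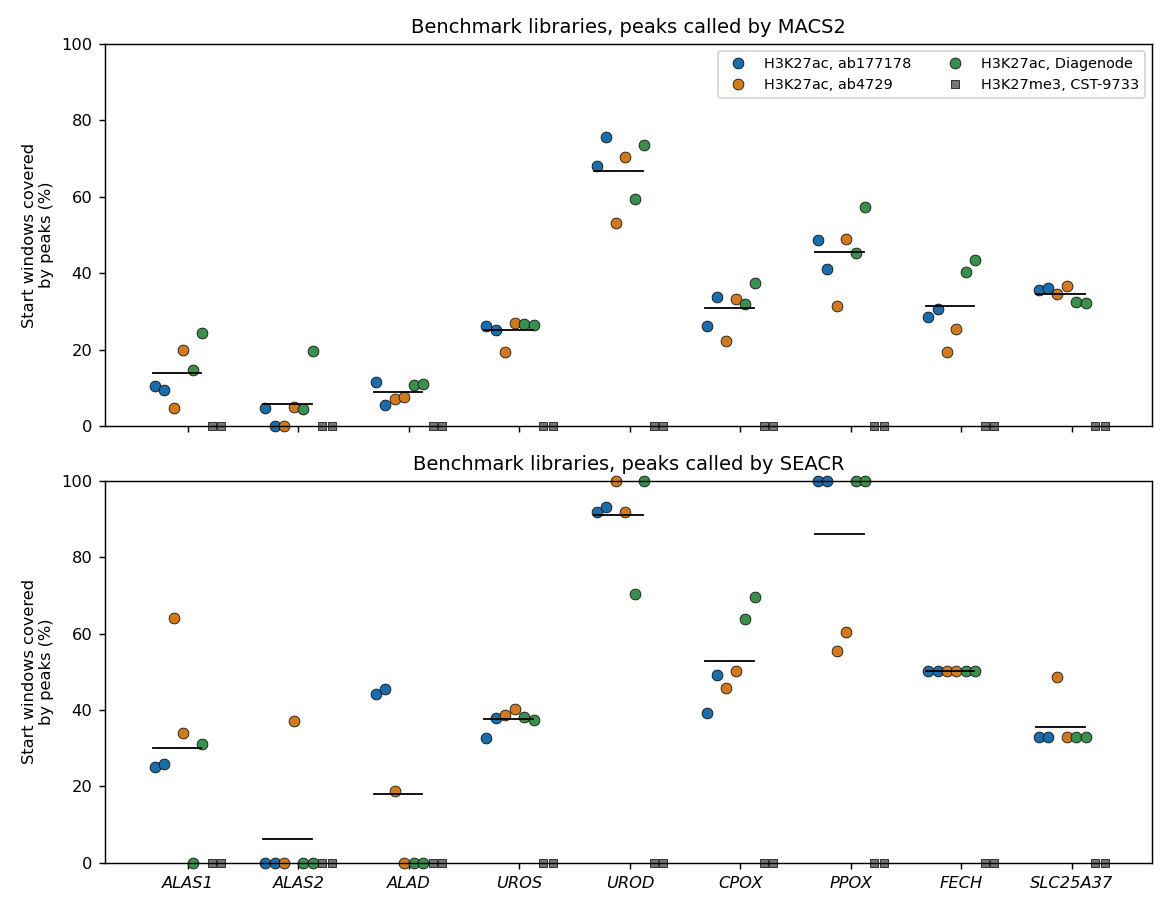
Percent of the start windows of each gene under peaks (vertical axis, 0 to 100%) in the 8 benchmark libraries, MACS2 above and SEACR below, where circles are the 6 H3K27ac libraries colored by antibody, squares the 2 H3K27me3 libraries, and horizontal lines the mean of the 6 H3K27ac libraries. UROD and PPOX stand highest by SEACR with means of 91.1% and 86.0%, ALAS2 lowest with 6.21%, and all H3K27me3 squares lie at 0%.

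By MACS2, 8 of 9 members had an H3K27ac peak at a start in 6 of 6 benchmark libraries, where 43.8% of protein-coding genes did, and the exception was ALAS2 with 4 of 6. By SEACR 6 of 9 did, against 36.7% of genes, the exceptions being ALAS1 (5 libraries), ALAD (3) and ALAS2 (1). All 9 had a peak in at least 1 of the 6 by either caller, against 58.6% of genes by MACS2 and 54.1% by SEACR. The median over the members of their median cover was 29.7% by MACS2 and 37.99% by SEACR, against 4.41% and 0% over all protein-coding genes. No member (0 of 9) had an H3K27me3 peak at a start in both benchmark libraries, against 26.3% of genes by MACS2 and 25.9% by SEACR, nor in either library, against 33.8% and 31.8%.

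The difference in cover between H3K27ac and H3K27me3 was tested gene by gene over the 8 libraries. With 6 against 2 libraries a two-sided exact permutation test has 28 arrangements and a smallest p of 0.0357. By MACS2, 12382 of 16395 genes tested passed after Benjamini-Hochberg adjustment (75.5%), 7653 of them higher in H3K27ac (46.7% of those tested) and 4729 lower. All of these were at the smallest p, so whether a gene there passes depends on how many of all genes reach it. Among the members, 7 passed, all higher in H3K27ac, each with p = 0.0357 and adjusted p = 0.0473 in the exact permutation test. Their mean cover in H3K27ac was 66.7% ± 8.74 for UROD, 45.5% ± 8.74 for PPOX, 34.7% ± 1.85 for SLC25A37, 31.4% ± 9.07 for FECH, 30.9% ± 5.59 for CPOX, 25.2% ± 2.85 for UROS and 8.90% ± 2.504 for ALAD (SD, n = 6), against 0% in H3K27me3 (n = 2). ALAS1, at 14.0% ± 7.22 against 0%, did not pass (exact permutation p = 0.0714, adjusted p = 0.0897), nor did ALAS2, at 5.71% ± 7.28 against 0% (exact permutation p = 0.464, adjusted p = 0.488). The median difference over all genes tested was 9.13 percentage points. Leaving out any 1 of the 8 libraries, either mark included, takes the number of calls to 0, since fewer arrangements raise the smallest unadjusted p to 0.0476 or 0.143.

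By SEACR the same test passed 0 of 15832 genes (0%), with 11308 at an unadjusted p below 0.05, 6711 of them higher in H3K27ac (42.4%), and a smallest adjusted p of 0.0500025, just above the threshold. UROS, UROD, CPOX, PPOX, FECH and SLC25A37 were at the smallest p of 0.0357 in this exact permutation test, with H3K27ac means of 37.5% ± 2.56, 91.1% ± 10.9, 52.9% ± 11.4, 86.0% ± 21.8, 50.1% ± 0 and 35.6% ± 6.43 (SD, n = 6), against 0% in H3K27me3 (n = 2). ALAS1 (30.0% ± 20.6, p = 0.179), ALAD (18.1% ± 21.98, p = 0.464) and ALAS2 (6.21% ± 15.2, p = 1) were not at it by the same exact permutation test.

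Within the same H3K27ac library, MACS2 covered less of UROS, UROD, CPOX, PPOX and FECH than SEACR in 6 of 6 libraries. The mean difference of MACS2 minus SEACR was -12.4 percentage points for UROS, -24.4 for UROD, -22.04 for CPOX, -40.5 for PPOX and -18.7 for FECH, each with an exact two-sided sign-flip permutation p of 0.03125 and an adjusted p of 0.0574, which does not pass. With 6 pairs 0.03125 is the smallest p this test can give, and 0.0574 was the lowest adjusted p of any gene. Over all genes 0 of 12016 passed (0%), 6540 were at an unadjusted p below 0.05, of which 42 were higher (0.35%) and 6498 lower (54.1%) by MACS2, and the median difference was -10.7 percentage points. ALAS1 (-16.0, lower in 5 of 6 libraries), ALAD (-9.17, lower in 3), SLC25A37 (-0.94, lower in 3) and ALAS2 (-0.49, lower in 1 and higher in 3) had exact permutation p-values of 0.156 to 1.

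By the height of their MACS2 peaks, UROS and PPOX stood first among the 9 genes and ALAS1 and ALAS2 last. The fold of a peak is its pileup over the background that MACS2 expects genome-wide in that library. The strongest start peak of UROS reached a fold of 31.996 to 123 (median 74.5) and stood above 96.5% to 99.6% of the peaks of its own list. It lies in the window that also holds the start of BCCIP, so its fold cannot be assigned to UROS alone. PPOX reached 37.1 to 71.2 (median 55.7) and stood above 97.0% to 98.8%. Its peak region also holds the start of the noncoding ENSG00000290115. In each of the 6 lists UROS and PPOX were within the top 4% of peaks by fold.

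SLC25A37 (fold 23.3 to 46.8, median 35.6), UROD (19.6 to 37.1, median 28.3), FECH (13.1 to 55.4, median 24.8) and CPOX (14.6 to 20.2, median 17.8) followed. The UROD region also holds the start of HECTD3, so its fold cannot be assigned to UROD alone. In ab177178 replicates 1 and 2 its summit lay at -843 and -873 bp from the canonical UROD start. The FECH fold of 55.4, in Diagenode replicate 2, is of a peak that spanned the start with its summit in intron 1. Where its start peak was separate, FECH reached 13.1 to 27.9. ALAD (11.2 to 16.5, median 14.0) stood above 39.9% to 68.1% of peaks and ALAS1 (8.00 to 14.6, median 12.1) above 17.6% to 59.8%, and ALAS2 had a median of 10.3 over the 4 lists that called it (6.97 to 15.1), with the peak of Diagenode replicate 2 reaching the window from intron 1. The ranges of each gene and the next in this order overlap. Within a library the order held in 6 of 6 lists between PPOX and SLC25A37, between SLC25A37 and UROD, and between CPOX and ALAD, in 5 of 6 between UROS and PPOX, in 4 of 6 between UROD and FECH, FECH and CPOX, and ALAD and ALAS1, and in 3 of 4 between ALAS1 and ALAS2. Diagenode replicate 2 had the highest fold for UROS, PPOX, SLC25A37, UROD and FECH, and ab4729 replicate 1 the lowest.

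**Figure D2:**
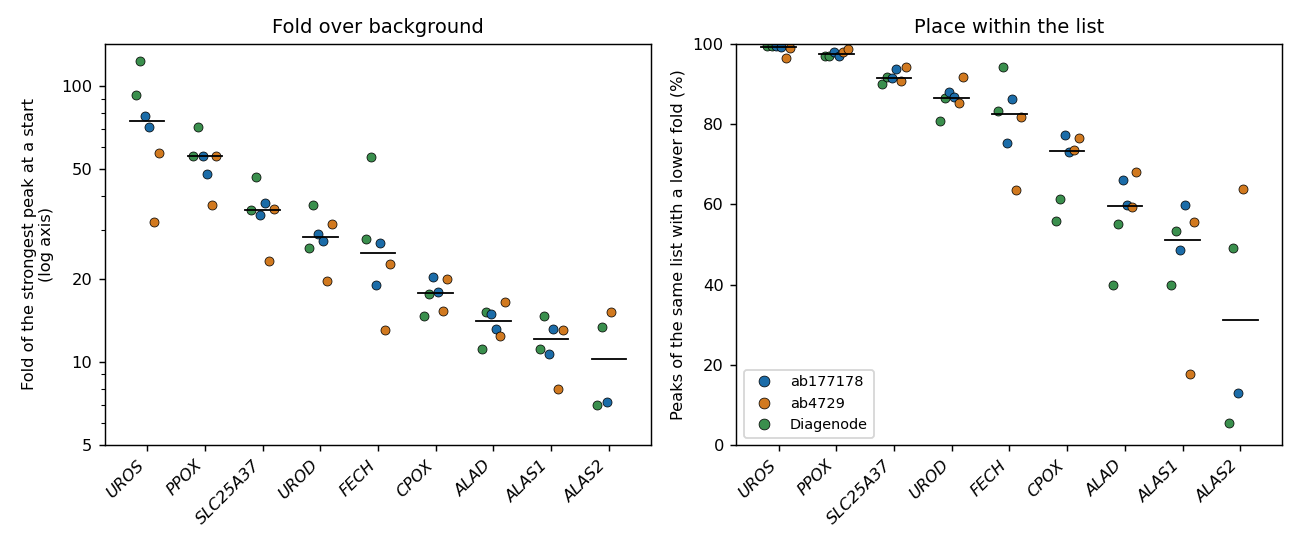
Fold of the strongest MACS2 H3K27ac peak touching a start window (left, log axis) and the percent of peaks in the same list with a lower fold (right) for each gene in the 6 benchmark libraries, colored by antibody, with lines at the median. UROS and PPOX stand at the top of both panels with medians of 74.5 and 55.7, and ALAS2 at the bottom with 10.3 over 4 libraries.

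Inside the genes, peaks in introns reached their highest fold in FECH, and peaks in 6 of 6 libraries away from the gene's own starts were seen in SLC25A37 and PPOX, among others. MACS2 peaks of the 6 libraries merged into 34 regions over the 9 genes, of which 13 were present in 6 of 6 libraries. Of the 34, 14 lay outside the start windows, and of these 9 were in SLC25A37, all in its first intron.

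ALAS2 had a peak at its start in 4 of 6 MACS2 lists, with a fold of 6.97 and 12.8 in Diagenode replicates 1 and 2, 7.14 in ab177178 replicate 1 and 15.1 in ab4729 replicate 2. A peak in intron 1, 2647 bp from the start, was called in 4 of 6 lists, with a fold of 13.4 in Diagenode replicate 2, 7.17 in ab177178 replicate 2, and 7.27 and 11.7 in ab4729 replicates 1 and 2. Both were present in Diagenode replicate 2 and ab4729 replicate 2, and the start was the higher in the ab4729 library alone.

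FECH had its tallest peak not at the start but 3116 to 3289 bp downstream, in intron 1, in all 6 MACS2 lists. In the 5 libraries where the 2 peaks were separate, the intron 1 peak had a fold of 29.3 in Diagenode replicate 1, 41.1 and 35.8 in ab177178 replicates 1 and 2, and 26.2 and 28.9 in ab4729 replicates 1 and 2, against 27.9, 19.0, 26.9, 13.1 and 22.7 at the start. The intronic peak was the higher in each of the 5, and in Diagenode replicate 2 a single peak with a fold of 55.4 spanned both and had its summit in the intron. A further peak with its summit at -1745 to -1648 bp from the start of FECH was called in 5 of 6 lists, with a fold of 9.62 to 17.6.

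SLC25A37 had 2 regions of its first intron in 6 of 6 MACS2 lists, at median distances of 3791 and 22094 bp from the start, with folds of 9.07 to 13.1 and 7.56 to 13.4, well below the 23.3 to 46.8 at its start. Others at 19005, 12218 and 15339 bp were in 5, 4 and 4 lists. PPOX had 1 region, 11150 bp from the canonical start, in 6 of 6 lists of either caller with a fold of 17.5 to 35.1, and the start of its neighbor B4GALT3 lies inside it. UROS had a region in 6 of 6 lists with its median summit at exon 3, over internal starts, with a fold of 13.8 to 23.7, and 1 in intron 1 in 3 of 6. CPOX had 1 at exon 5 and 1 in intron 5, each in 3 of 6, both touching the second start window, and UROD, ALAS1 and ALAD had no MACS2 peak outside their start windows. The map of peaks along FECH, UROS and SLC25A37 shows these positions library by library.

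**Figure D3:**
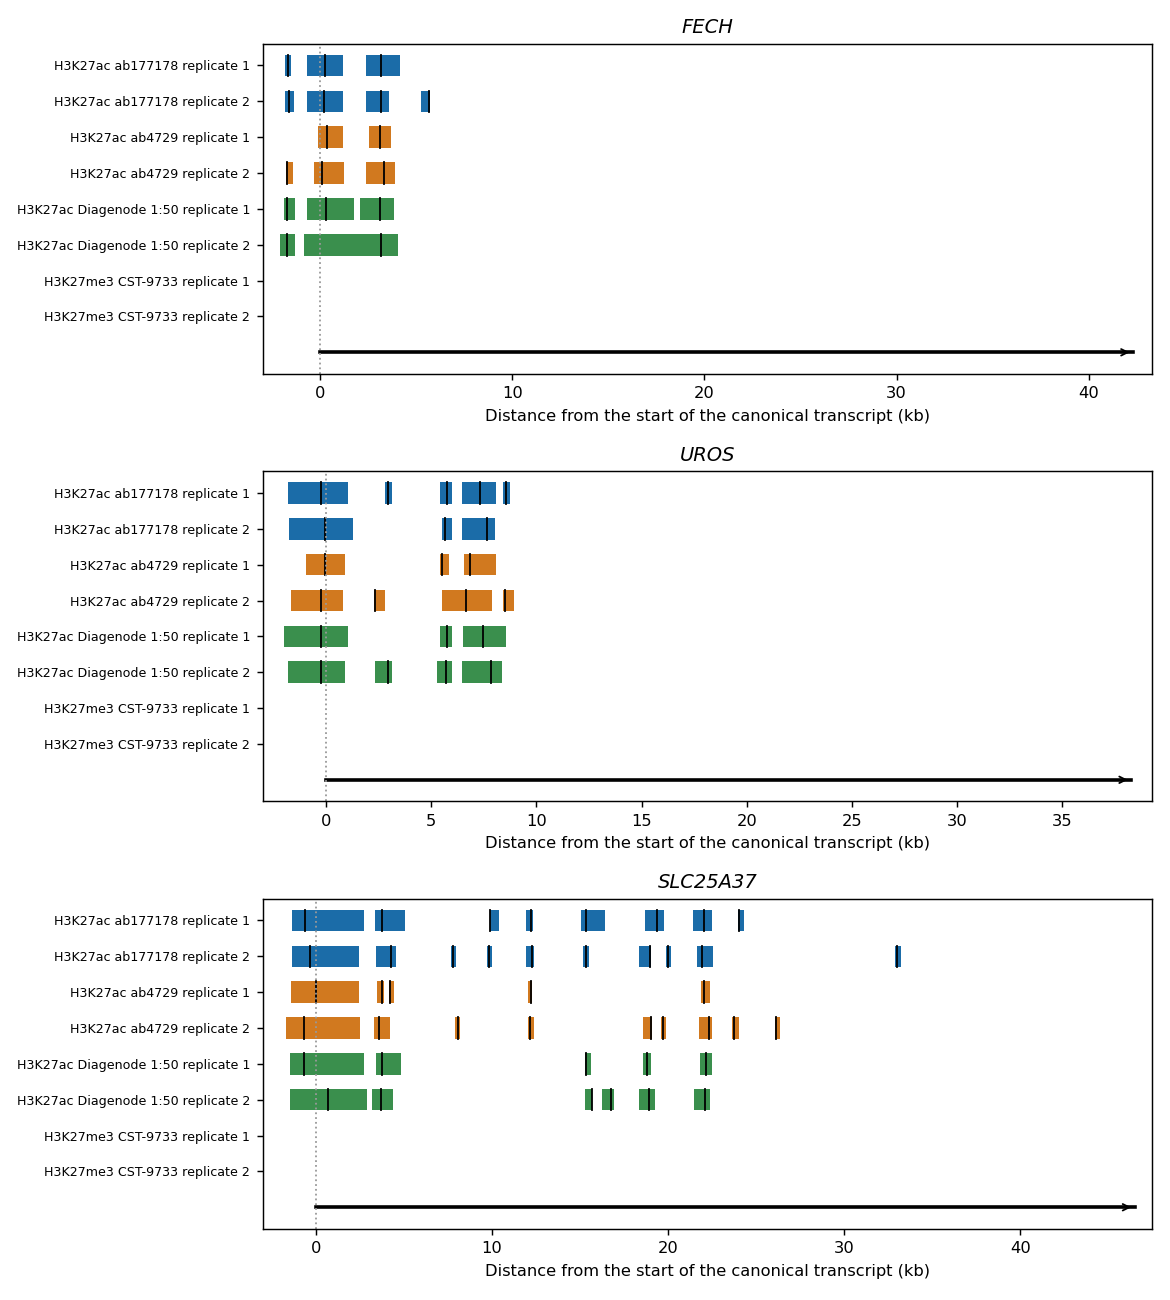
MACS2 peaks (bars) and summits (black ticks) along 3 genes in each of the 6 H3K27ac and 2 H3K27me3 benchmark libraries, as distance from the canonical transcript start in kb, with an arrow for the gene. FECH shows a summit in intron 1 in all 6 H3K27ac rows, SLC25A37 a scatter of intronic bars, and the H3K27me3 rows are empty.

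All 9 genes had an H3K27ac MACS2 peak in the gene body in 6 of 6 benchmark libraries, as did 45.4% of genes, and by SEACR 6 of 9 did, against 39.2%. H3K27ac MACS2 cover of the body was 84.3% ± 7.39 for UROD, 30.2% ± 4.73 for PPOX, 14.1% ± 3.81 for SLC25A37, 10.1% ± 4.37 for CPOX, 9.74% ± 1.503 for UROS, 7.35% ± 3.46 for ALAS2, 7.33% ± 1.44 for FECH, 6.43% ± 3.16 for ALAS1 and 2.13% ± 0.899 for ALAD (SD, n = 6), against 0% in H3K27me3 for all 9 (n = 2). ALAS2, whose marks overlapped at its starts, had no overlap over its body by MACS2, with 4.75% to 14.1% in H3K27ac against 0% in H3K27me3. By SEACR the marks overlapped over the ALAS2 body, with 0% to 25.9% in H3K27ac against 0% and 3.53% in H3K27me3. The exact permutation p was 0.0357 for 7 members and 0.0714 for ALAS1 and CPOX, and no gene passed the adjustment (0 of 17125, 0%, with 12212 at an unadjusted p below 0.05, 6651 of them higher in H3K27ac, 38.8%, and 5561 lower, 32.5%, and a smallest adjusted p of 0.0501). By SEACR 0 of 16633 passed (0%, with 11074 at an unadjusted p below 0.05, 5656 of them higher, 34%, and 5418 lower, 32.6%, and a smallest adjusted p of 0.0536), and UROS, UROD, PPOX, FECH and SLC25A37 were at an exact permutation p of 0.0357. Outside the start windows, an H3K27ac peak in 6 of 6 lists was found for 4 members by MACS2 (ALAS2, PPOX, FECH and SLC25A37), against 16.1% of genes with a body outside windows, and for 4 by SEACR (UROS, PPOX, FECH and SLC25A37), against 19.5%.

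H3K27me3 was nearly absent from the 9 genes in all 7 libraries. In the benchmark libraries the sole peak inside a member was a SEACR peak of CST-9733 replicate 2 in ALAS2, 5667 to 6439 bp from the start, which covered 3.53% of the gene body, so that 0 of 9 members by MACS2 and 1 of 9 by SEACR had one in the body in either library, against 38.1% and 36.9% of genes. Elsewhere, the first H3K27me3 library had a MACS2 peak at the ALAD start (2.67% of its windows, fold 3.16), the 11 cycle SDS library a SEACR peak in the PPOX window (8.47%), and the 11 cycle column library SEACR peaks before the UROS start (2.40%) and at the far end of PPOX. Of all protein-coding genes, 41.2% had an H3K27me3 SEACR peak at a start in at least 1 of the 7 libraries, and of the members UROS and PPOX did, in 1 library each. The nearest benchmark H3K27me3 peak lay 0.351 to 0.547 kb past the end of FECH in all 4 lists, 2.61 to 19.0 kb past the end of UROD and 2.48 to 47.7 kb past the end of SLC25A37. Around ALAS1 the nearest lay 156 to 157 kb before the start in all 4 lists.

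Across all H3K27ac libraries PPOX was called in every list and ALAS2 in few. Over 31 SEACR lists a start peak was called for PPOX in 31, UROD in 29, UROS in 28, SLC25A37 in 27, CPOX in 21, FECH in 16, ALAS1 in 5, ALAD in 4 and ALAS2 in 2. Over 15 MACS2 lists the counts were 15 for PPOX and UROD, 14 for UROS and SLC25A37, 12 for CPOX, 10 for FECH, 7 for ALAD, and 6 for ALAS1 and ALAS2. All ALAS1 calls and 3 of the 4 ALAD calls by SEACR came from benchmark libraries. In the first libraries PPOX and UROS were called in all 5 H3K27ac SEACR lists (5.98% of genes were) and PPOX and UROD in all 5 MACS2 lists (2.76% of genes), while ALAS1, ALAS2 and ALAD were called in none by SEACR (48.6% of genes) and ALAS1 and ALAD in none by MACS2 (47.5% of genes). Active Motif, with the fewest peaks, called 2 members by SEACR, against 8.62% of genes, and ab4729 and Diagenode at 1:50 called 6, against 45.2% and 39.5% of genes. Between the first Diagenode libraries, CPOX had a SEACR cover of 68.5% at 1:50 and 14.8% at 1:100, UROD 71.1% and 43.6%, PPOX 58.3% and 21.8%, and FECH 41.0% and 0%, with 11883 and 7882 peaks in the lists. With 1 library a condition these values have no replicate error.

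**Figure D4:**
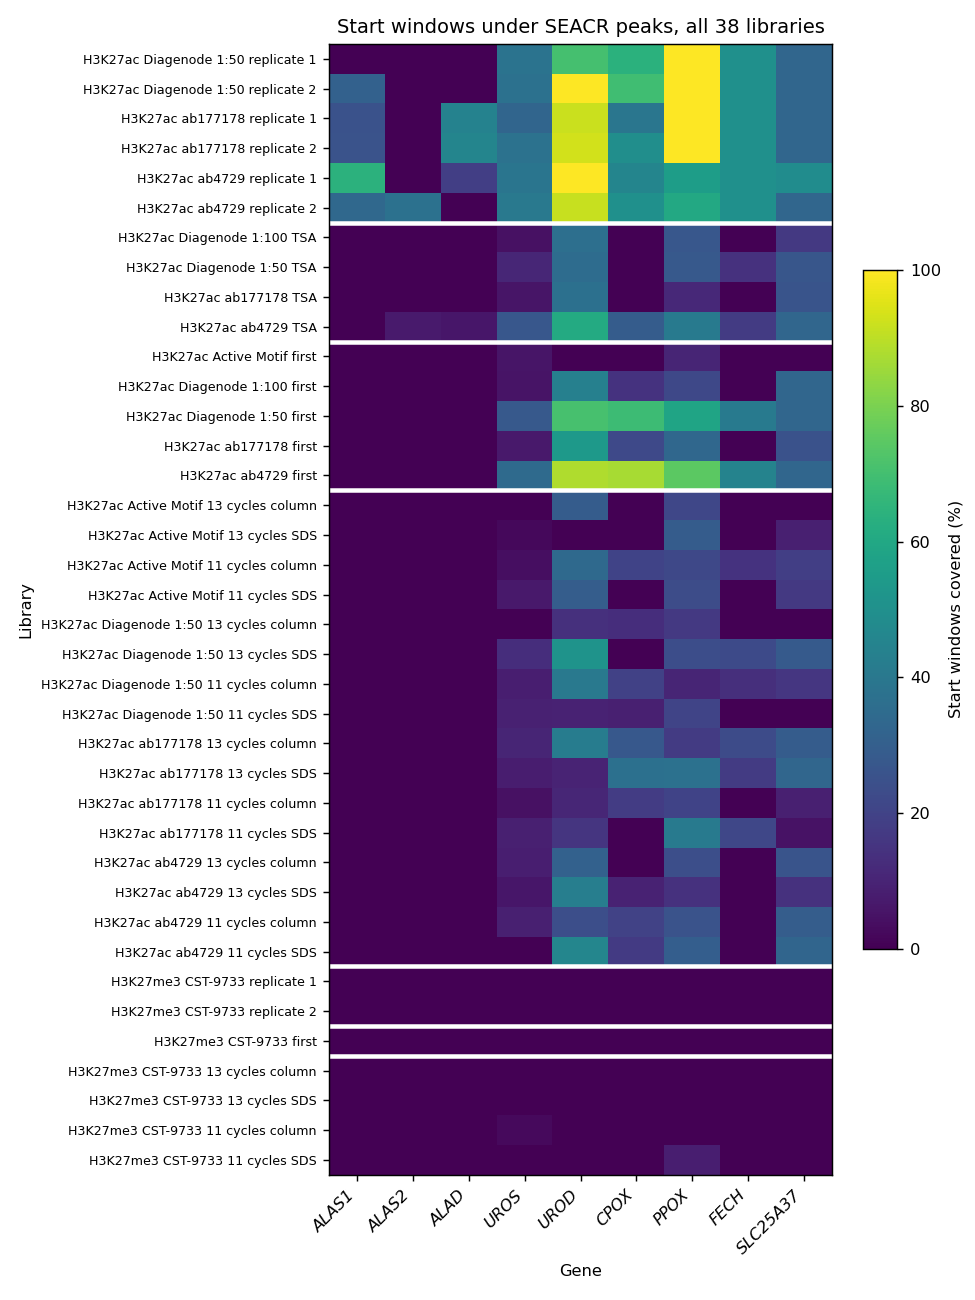
Percent of the start windows under SEACR peaks (color, 0 to 100%) for the 9 genes in all 38 libraries, with white lines between the benchmark, TSA, first, and PCR and extraction sets, H3K27ac above H3K27me3. PPOX is above 0% in all 31 H3K27ac rows, ALAS1, ALAS2 and ALAD are at 0% in all 16 H3K27ac rows of the PCR and extraction set, and the H3K27me3 rows are at 0% but for 8.47% and 2.40%.

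With TSA, UROS, UROD, PPOX and SLC25A37 were called in all 4 SEACR lists, as were 8.23% of genes, and in all 4 MACS2 lists, as were 2.4%. ALAS1 was called in none of the 4 by either caller, as were 70.9% of genes by MACS2 and 58.1% by SEACR. PPOX had a SEACR cover of 41.0% with TSA against 74.7% without it for ab4729, 27.8% against 58.3% for Diagenode at 1:50, 11.4% against 33.4% for ab177178, and 27.1% against 21.8% for Diagenode at 1:100. UROD had 61.0% against 88.2%, 35.3% against 71.1%, 37.1% against 54.2% and 36.5% against 43.6% in the same 4 pairs. With TSA, 0 to 2 of the 9 members were higher and 4 to 6 lower in each SEACR pair, against 0.952% to 7.63% of all genes higher and 23.04% to 44.4% lower. In each MACS2 pair 0 to 3 members were higher and 3 to 7 lower, against 0.218% to 13.3% of all genes higher and 15.4% to 50.5% lower. ALAS2 and ALAD were called by SEACR with TSA and not without it for ab4729 (7.20% and 6.04%, against 0%). The TSA lists were downsampled and the lists without TSA analysed here were not, so TSA and depth cannot be told apart, and 4 pairs cannot reach a p of 0.05.

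Neither the number of PCR cycles nor the way of extraction gave a difference that passed the test at any member. In the 16 H3K27ac lists of this experiment 2 to 6 of the 9 members were called, against 10.4% to 28.6% of genes, with ALAS1, ALAS2 and ALAD in none (as 52.1% of genes), and PPOX alone in all 16 (as 1.89% of genes). PPOX cover was 14.3% to 37.1% at 13 cycles and 10.3% to 40.9% at 11 cycles, with a mean difference of -1.08 ± 7.005 percentage points (SD, n = 8 pairs, higher in 3, exact two-sided sign-flip permutation p = 0.742). FECH was called in 3 libraries at 13 cycles and 3 at 11 cycles, and CPOX in 4 and 6. The other members with calls had mean differences of 13 minus 11 cycles of 1.67 (FECH and SLC25A37), 1.25 (UROD), -0.30 (UROS) and -1.98 (CPOX) percentage points, with SDs of 5.24 to 25.2 over the 8 pairs and exact permutation p-values of 0.750 to 0.906. Over all genes 0 of 9662 passed (0%), and 169 were at an unadjusted p below 0.05, 44 of them higher at 13 cycles (0.455%) and 125 lower (1.29%). With 8 pairs the smallest p the sign-flip test can give is 0.0078, here and for extraction.

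With column extraction PPOX had a cover of 10.3% to 25.6%, against 14.3% to 40.9% with SDS, and was lower in 7 of 8 pairs. For Active Motif the values were 21.6% with column against 23.4% with SDS at 11 cycles and 21.3% against 29.2% at 13 cycles, and for Diagenode 10.3% against 20.7% and 16.7% against 23.8%. For ab177178 they were 20.1% against 40.9% at 11 cycles and 17.3% against 37.1% at 13 cycles, and for ab4729 25.6% against 29.99% and 24.2% against 14.3%. The gap was widest with ab177178 and turned round once, with ab4729 at 13 cycles. The mean difference of column minus SDS was -7.78 ± 9.87 percentage points (SD, n = 8 pairs), with an exact two-sided sign-flip permutation p of 0.0703 and an adjusted p of 1, which does not pass. CPOX was higher with column in 5 and lower in 2 of 8 pairs, by 5.62 ± 11.5 percentage points on average (exact permutation p = 0.188). UROD (2.57), SLC25A37 (-1.39), UROS (-1.30) and FECH (-1.26) had SDs of 6.29 to 26.3 percentage points and exact permutation p-values of 0.586 to 0.813. Over all genes 0 of 9662 passed (0%), with 98 at an unadjusted p below 0.05, 51 of them higher with column (0.528%) and 47 lower (0.486%). The plot of pairs shows lines that cross for most genes, and signs differed between antibodies and within one. With Diagenode, UROD was higher at 13 than at 11 cycles with SDS (51.3% against 9.52%) and lower with column (13.9% against 40.5%).

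**Figure D5:**
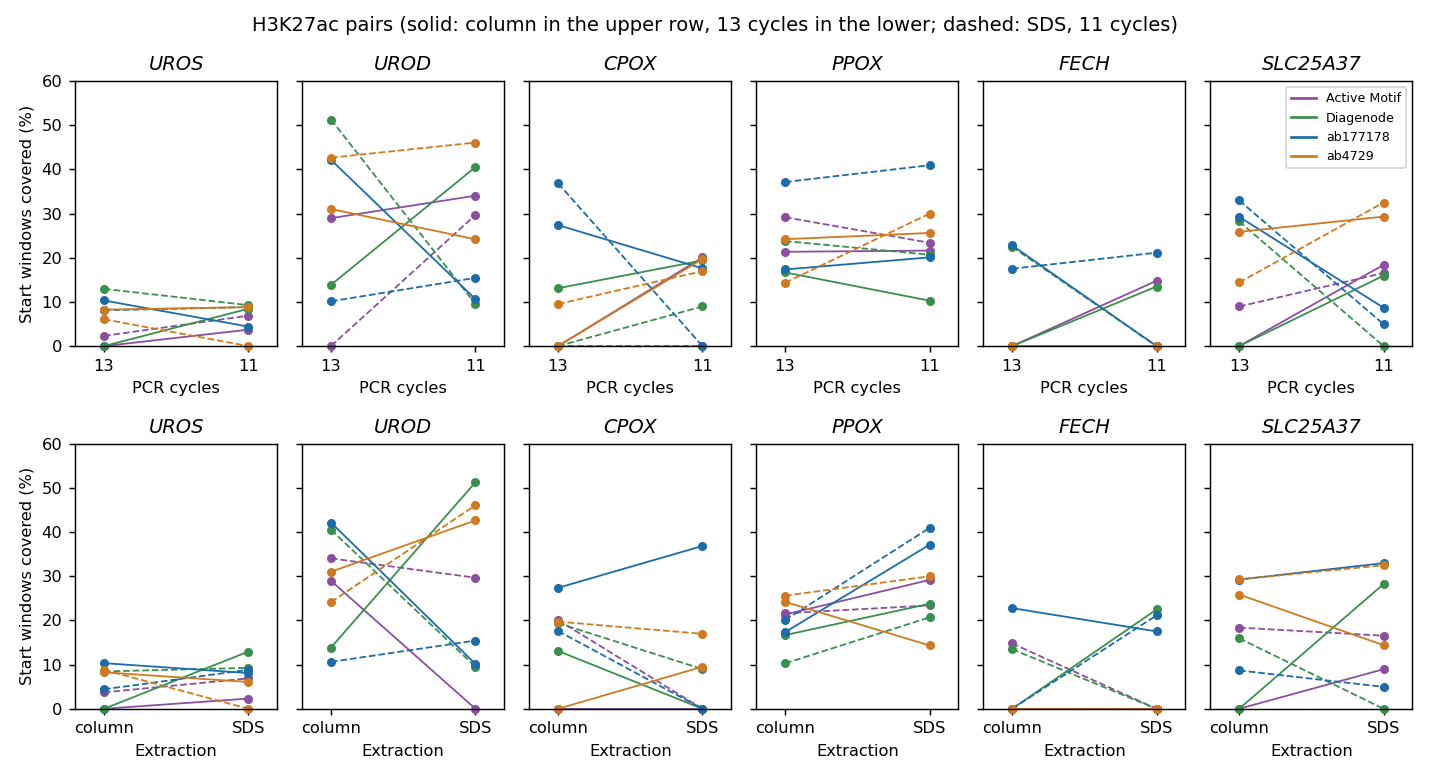
SEACR cover of the start windows in percent for the 6 members with calls, with 13 against 11 PCR cycles in the upper row (solid column, dashed SDS extraction) and column against SDS extraction in the lower row (solid 13, dashed 11 cycles), each line 1 pair of H3K27ac libraries colored by antibody. PPOX is lower with column than with SDS in 7 of 8 pairs, and the other genes go both ways.

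Of 20 further genes of heme and iron handling, 17 had an H3K27ac MACS2 peak at a start in 6 of 6 benchmark libraries and 16 had a SEACR peak in 6 of 6. Of all protein-coding genes, 43.8% did by MACS2 and 36.7% by SEACR. Of 8 mitochondrial carriers and partners, 7 did by each caller, such as ABCB10, a mitochondrial transporter of red cells (MACS2 cover 13.7% to 28.02%), and ABCB6, a porphyrin transporter (2.99% to 21.9%). All 5 genes of iron-sulfur cluster assembly did by both callers, such as GLRX5, a glutaredoxin (MACS2 cover 40.2% to 69.8%). Of 7 genes of heme import, export and breakdown, 5 did by MACS2 and 4 by SEACR, such as the biliverdin reductases BLVRA (7.89% to 20.5%) and BLVRB (34.6% to 52.6%). HMOX1, the inducible heme oxygenase, named after its values were seen, had 0 of 6 MACS2 and 1 of 6 SEACR lists. FLVCR2 had no H3K27ac peak and carried H3K27me3 in both libraries by both callers, alone among the 20. Of all genes, 26.3% carried H3K27me3 at a start in both libraries by MACS2 and 25.9% by SEACR.

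Over the 38 SEACR lists, the genes whose start cover was nearest to that of ALAS2 among 16656 protein-coding genes with a value, by mean absolute difference, were KCTD14 (0.605 percentage points), SEC14L4 (0.843) and ART1 (0.901), called in 4, 1 and 1 lists against 2 for ALAS2. For SLC25A37 they were GIN1 (4.96), ZC3HAV1 (5.00) and TBX18 (5.06), called in 31, 28 and 31 lists against 27.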

How the data were processed

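Processed peak lists of 38 K562 CUT&Tag libraries were analysed. Per the labels and the study's methods, the authors demultiplexed with bcl2fastq, trimmed with Trim Galore 0.6.6, aligned to hg19 (GRCh37) with Bowtie2 2.2.9 and used Picard 2.6.0, SAMtools 1.3.1 and bedtools 2.25.0. They called peaks on each library with MACS2 at q 1e-05 without a local background (narrow for H3K27ac, broad for H3K27me3) and with SEACR at 0.01 for H3K27ac and 0.1 for H3K27me3. The deposited MACS2 lists give for each peak a score, the fold over background as a ratio, the −log10 p-value and −log10 q-value and, for H3K27ac, the summit's offset. The lowest −log10 q-value in a MACS2 list was 1.22 to 1.76 for H3K27me3 and at least 5.04 for H3K27ac. Peaks of the marks were thus not held to the same threshold. The deposited SEACR lists give the total signal and the highest coverage. TSA and PCR lists came from downsampled reads. Columns of per-sample values left unused numbered 0.

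From these lists, the percent of bases under peaks was computed for all 20163 protein-coding genes of GENCODE v44lift37 (64449 genes in all) within 1.5 kb of every start and over the gene body, and a call needed 1 bp of overlap. Blacklisted regions were not removed. Marks were compared by a two-sided exact permutation test over 28 arrangements, and callers, cycles and extraction by exact sign-flip permutation tests over pairs of libraries, gene by gene on genes above 0 in at least 1 library, with Benjamini-Hochberg adjustment over all of them at 0.05. Peak numbers are given in place of library depths, which were not used here. The tests were checked on simulated data. Scripts ran under Python 3.11.15 with scipy 1.17.1, pandas 2.3.3 and numpy 2.4.6, and figures were drawn with matplotlib 3.10.9. The printed sequences were read from the GRCh37 genome. Alternatives were windows of 500 bp and 3 kb, protein-coding or outermost starts only, MACS2 peaks at q of at most 1e-10, the top 50% of SEACR peaks by signal, overlaps of at least 500 bp, the body outside the start windows, a replicate block, 10 pairs with H3K27me3 added, and leaving out libraries or antibodies.

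All 9 members are named, with neighbours that start in their windows, genes of a fixed list of 20 that lack H3K27ac or carry H3K27me3, up to 2 per group by alphabet that were called throughout, and the 3 genes most like ALAS2 and SLC25A37. The members and lists were chosen with earlier results of these data known. Some genes of the lists and 1 stretch of sequence are not reported here.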

Additional observations from a re-analysis of the deposited data

Results flagged for a closer look

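Among 35 groups of the 6 benchmark H3K27ac libraries (a gene, a measure and a caller each), 7 held a library set apart from the other 5 by a gap that is large against the range of the group (20%). Cover is bounded and its values tie between libraries in some groups, so how often chance gives such a library was not estimated. The groups also share libraries and genes. ALAS2 gave 3 of the 7. Its start windows were covered by 19.8% by MACS2 in Diagenode replicate 2, against 0% to 5.08% in the others, and its gene body by 14.1% in the same library, against 4.75% to 7.69%. By SEACR its start windows were covered by 37.2% in ab4729 replicate 2, against 0% in the other 5.

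SLC25A37 start windows were covered by 48.7% by SEACR in ab4729 replicate 1, against 33.0% in each of the others. UROS start windows were covered by 19.5% by MACS2 in the same library, against 25.1% to 27.02%. UROD stood apart in Diagenode replicate 1 by SEACR, with 70.3% of its start windows covered, against 91.7% to 100%, and 95.4% of its body, against 98.4% to 100%.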

How the results depend on the processing

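The count of genes that separated the marks at their starts by MACS2 was 12382, and 0 with peaks at q of at most 1e-10 (smallest adjusted p 0.0559), with the replicate block (16 arrangements, smallest p 0.0625), without the ab177178 libraries (smallest p 0.0667) and without each of the 8 libraries in turn (0 to 0, smallest p 0.0476 or 0.143), and was 11432 to 12549 with other windows or starts. Fewer arrangements raise the smallest p. The replicate numbers did not pair the samples (correlations of deviations -0.07 to 0.38 over 24 pairs, 2 above 0.1), and the block fit is given here alone. The SEACR count of 0 became 11082 with protein-coding starts and 10511 with outermost starts. Members with H3K27ac at a start in 6 of 6 libraries numbered 7 to 9 by MACS2 and 5 to 7 by SEACR (7 without Diagenode replicate 1), and with H3K27me3 in both libraries 0 throughout. The signs that turned were all of values that had not passed. For MACS2 minus SEACR, windows of 500 bp gave ALAS2 6.02, ALAD 5.23 and SLC25A37 4.04 percentage points, 3 kb gave ALAS2 0.96, and the top 50% of SEACR peaks gave ALAS1 14.0, ALAS2 5.71, ALAD 8.90, CPOX 25.6 and SLC25A37 1.68. Leaving out a library gave SLC25A37 -1.88 to 1.69 (positive without ab4729 replicate 1) and ALAS2 -4.54 to 5.84 (positive without ab4729 replicate 2). For 13 minus 11 cycles, 3 kb gave FECH -0.70, the outermost start PPOX 0.91, and the top 50% UROS 0.15, UROD -2.52, CPOX 0.90, PPOX 1.51 and FECH -0.52. Leaving out an antibody gave UROS -1.31 to 0.99, UROD -2.70 to 7.46, CPOX -10.4 to 1.88, PPOX -3.02 to 1.41, FECH -0.97 to 4.69 and SLC25A37 -5.87 to 6.55. For column minus SDS, the top 50% gave FECH 0.93, and leaving out an antibody UROD -2.12 to 9.02, UROS -3.57 to 0.56, SLC25A37 -3.23 to 0.19 and FECH -4.14 to 0.97. The cause was not tested for these turns. The lists hold no reads, so a gene without a peak is one below the caller's threshold.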
